A study of Mus musculus with 2 samples.

Results

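The genes of TGF-beta and BMP signalling were examined in fetal mouse lung with and without Foxj1, by taking every array probe whose gene name belongs to the ligands, latent binding proteins, receptors, Smads, antagonists or Id genes of the pathway. The name patterns took 95 probes for 61 genes, of 41167 probes and 27740 gene names on the array. Of these, 86 probes for 56 genes passed the filter on dim signal, which asks for a signal well above background in either channel. Bmp15, Gdf2, Gdf3, Fst and Grem1 were not well above background in either channel, so no ratio is given for them. The patterns also took 3 genes that are not signalling components in the strict sense, the procollagen protease Bmp1, the kinase Bmp2k and the focal adhesion protein Tgfb1i1.

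A lung from an embryo homozygous for Foxj1lacZ, an allele of the forkhead factor Foxj1 that carries the lacZ reporter, was compared with that of a heterozygous embryo. Both were male litter mates at E16.5 on a mixed Sv129 and CD-1 background, so the heterozygous control carries 1 copy of the allele too. The sample titles speak of lung lobes and the source names of lung epithelium, and whole lobes were dissected with outside tissue removed. RNA of each lung was labelled with Cy5 (homozygous) or Cy3 (heterozygous) and hybridised to 1 array, and the series looks for genes that act downstream of Foxj1 in ciliogenesis. With 1 lung per genotype and no dye swap, genotype, animal and dye cannot be told apart, no test was possible, and every difference describes this array alone.

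TGF-beta family ligands are secreted dimers that bring together type I and type II serine/threonine kinase receptors. The type I receptor then phosphorylates receptor Smads, which join Smad4 and enter the nucleus. TGF-betas and activins use Smad2 and Smad3, whereas BMPs use Smad1, Smad5 and Smad9. In the developing lung Bmp4 is known from the distal epithelial tips, and TGF-beta signalling is known to restrain branching and to shape the mesenchyme and its elastic matrix.

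Levels below are normalized log2 intensities of a gene's probes, and ratios are log2 of homozygous over heterozygous. A gene takes the median of its kept probes. The value after ± on a single ratio is the error that the scanner software gives to its own log ratio. It covers noise of the spot and channel, not the difference between animals. Of 43379 spots, 75.6% were well above background in the homozygous channel and 69.0% in the heterozygous channel. Foxj1 itself stood at 7.61 in the homozygous lung and 9.53 in the heterozygous lung, a ratio of −1.92 ± 0.30. Whether its probe lies in the part of the gene that the allele disrupts was not determined, so this value does not by itself check the labels. Lung markers were present, with 7 of 7 epithelial, 6 of 6 mesenchymal and 6 of 6 endothelial markers kept. Of the motile ciliated markers 7 of 7, of the club cell markers 4 of 4 and of the cardiac muscle markers 5 of 8 were at least 2-fold lower in the homozygous lung, where 1.88% of all genes were. Single markers of other lists were also at least 2-fold lower, namely Sftpb (surfactant, −1.72), Alas2 (erythroid, −1.73) and Msln (mesothelial, −1.58). Their lists as a whole had medians of 0.25 (epithelial, 2 of 7 below 0), −0.62 (erythroid, 3 of 4) and 0.59 (mesothelial, 1 of 5). Of the 5 mesothelial markers 3 were at least 1.5-fold higher. The leukocyte marker Cma1 was at least 2-fold higher (1.16), where 0.578% of all genes were. In whole lobes, fewer cells of a type and less RNA per cell cannot be told apart.

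The results turn on 4 genes that differed by at least 1.5-fold, each measured by a single 60-base probe, so what was measured is set by these oligonucleotides. The first 30 bases of each probe are given, from the deposited array description. The probes lie at chr14:32764067-32764126 on the + strand (Gdf10), chr12:85672971-85673030 on the − strand (Ltbp2), chr1:53012183-53012242 on the + strand (Gdf8) and chr11:53281228-53281287 on the + strand (Gdf9), all on the mm8 build.
Gdf10: ctacacgtgcttttatacatgcagtatgca
Ltbp2: tctaagaaatgcacttccatacaagctagc
Gdf8: tcacaaaaaaggtgactgcttctatttcag
Gdf9: acagatttgttagcataagtctcgagtaga
The exon or untranslated part that each probe falls in was not determined here.

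The pathway as a whole was level between the 2 lungs. The median ratio of the 56 kept genes was 0.002, against −0.003 for all 21262 genes kept, and 28 of the 56 had a ratio below 0, against 50.5% of all genes. None of the 56 was at least 2-fold lower, where 1.88% of all genes were, and none was 2-fold higher, where 0.578% were. At 1.5-fold, 3 genes were lower (5.36% of the members, against 5.88% of all genes) and 1 was higher (1.79%, against 2.1%). These shares lie near the background, so the counts do not set the pathway apart from the rest of the array. The quartiles of the members lay at −0.23 and 0.10, and those of all genes at −0.19 and 0.15. Within 1 scanner error of 0 were 32 of the 56 genes, while 65.1% of all genes were. Beyond 2 scanner errors, Gdf10, Ltbp2 and Ltbp4 were lower (8.32% of all genes were) and Gdf9 was higher (3.84% of all genes were). These counts set loess ratios against an error that belongs to the software's own log ratio. The offset pulls dim loess ratios towards 0, so a dim gene can stay inside 2 errors for that reason. Gdf8 stood at −0.59 ± 0.34 with loess and at −1.36 by the software's log ratio.

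**Figure D1:**
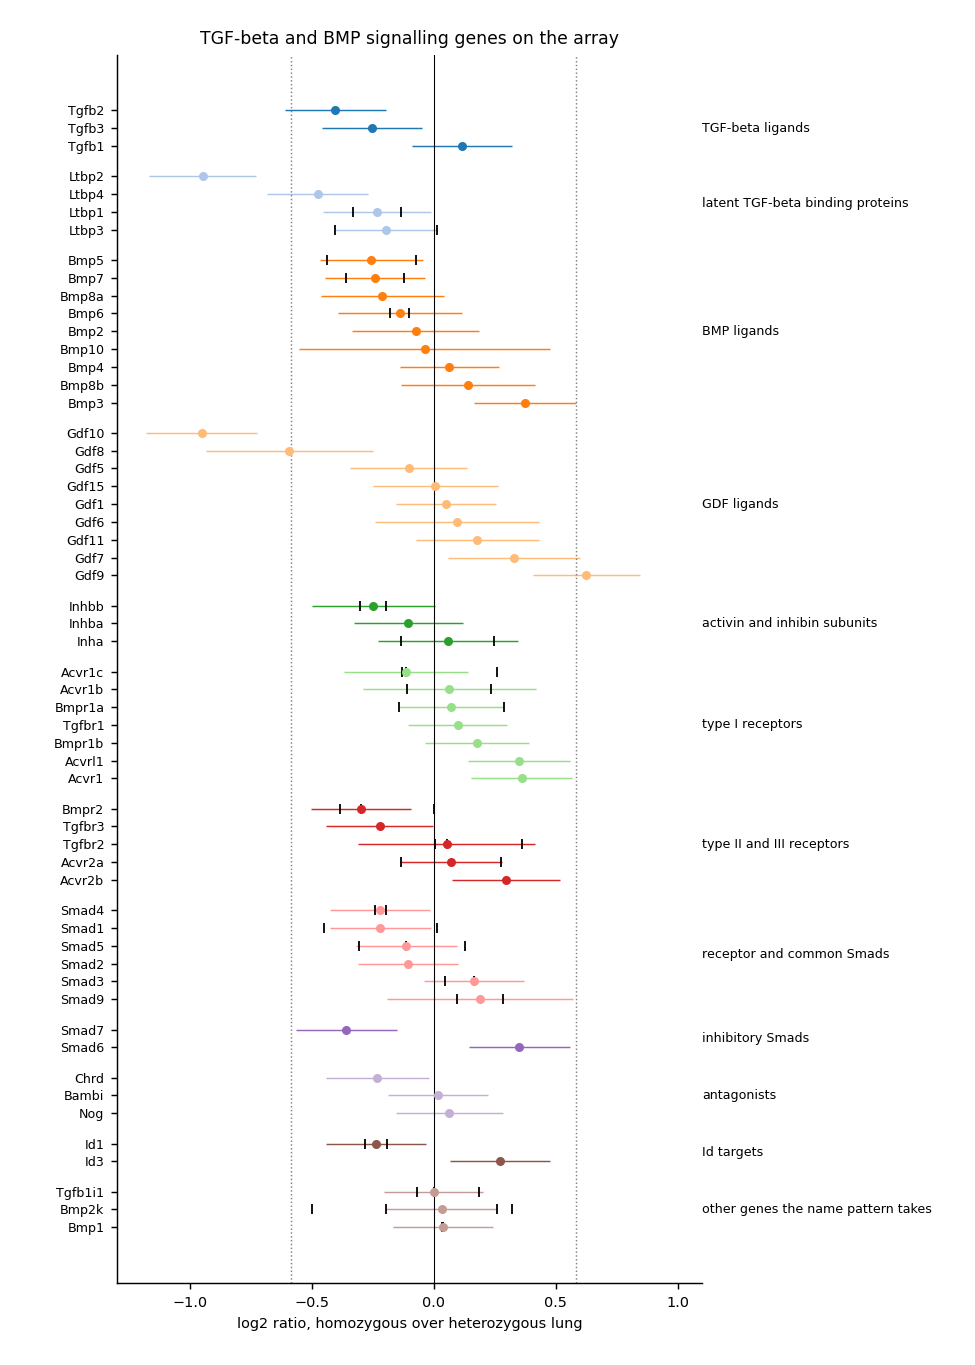
Log2 ratio of homozygous over heterozygous lung (x axis) for each of the 56 kept genes, grouped by role. Points are the median of a gene's probes, bars 1 scanner error to each side, black ticks the single probes where a gene has several, and dotted lines mark 1.5-fold. Gdf10 (−0.95), Ltbp2 (−0.95) and Gdf8 (−0.59) lie left of the lower line and Gdf9 (0.63) right of the upper one.

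Of the TGF-beta ligands, Tgfb2 had a level of 13.33 in the homozygous lung and 13.73 in the heterozygous lung, a ratio of −0.40 ± 0.21. Tgfb3 stood at 12.62 and 12.87 in the same order, a ratio of −0.25 ± 0.21. Both ratios were of the opposite sign, 0.27 and 0.36, when the array was centred on its median in place of the intensity-dependent loess fit, a setting that put the median of all genes at 0.22, against −0.003 with loess. Among genes in the same range of levels that median was higher, at 0.642 for the range of Tgfb2 and 0.605 for that of Tgfb3. Both ligands thus stayed below genes of like brightness. Tgfb1, the ligand best known from immune and fibrotic responses, was probed by repeated spots and had a ratio of 0.12 ± 0.03 (SD, n = 8 spots). Its spots ran from 10.24 to 10.34 in the homozygous channel and from 10.10 to 10.22 in the heterozygous channel, so the 2 channels did not overlap. With loess the difference was still small beside the 1.5-fold rule, and repeated spots of 1 array carry no spread between animals. With median centring Tgfb1 was past that rule at 0.61, where genes of levels 10 to 11 had a median of 0.499.

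Latent TGF-beta binding proteins are matrix proteins, of which Ltbp1, Ltbp3 and Ltbp4 tether latent TGF-beta, while Ltbp2 binds fibrillin and is not known to bind latent TGF-beta. With loess their median of −0.36 was the lowest of any role and 4 of 4 were below 0, whereas with median centring 2 of 4 were (median 0.11) and the GDF ligands had the lowest median (−0.14). In that setting the median of all genes rose with brightness, from 0.194 at levels 8 to 9 to 0.71 at levels 14 to 15. Each of the 4 binding proteins lay below the median of its own range of levels. Ltbp2 led them, at 12.19 in the homozygous lung and 13.14 in the heterozygous lung. Its ratio was −0.95 ± 0.22, or 1.93-fold lower, and 2.22% of all genes had a lower one. Setting the offset to 0 left it at −0.95 and the log ratio from the scanner file gave −0.90. Median centring gave −0.34, where it was no longer 1.5-fold lower. Ltbp4, known from elastic fibre assembly in the lung, stood at 14.22 and 14.69, a ratio of −0.48 ± 0.21, which became 0.29 with median centring. The 2 probes of Ltbp1 gave −0.33 and −0.14, and those of Ltbp3 gave −0.40 and 0.01. The RefSeq gene table also places a long noncoding RNA, D030025P21Rik, over Ltbp2. Fibrillins, the microfibril proteins to which these genes' products bind, lay at −0.45 ± 0.21 for Fbn1 and −0.52 ± 0.21 for Fbn2, but at 0.14 and 0.05 with median centring. Genes of levels 11 to 12 and 12 to 13 had medians of 0.555 and 0.605 in that setting. Fbn1 was singled out after its value was seen.

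With loess none of the 9 kept BMP ligands differed by 1.5-fold, and their ratios ran from −0.26 to 0.37. With median centring Bmp3 (0.85) and Bmp4 (0.66) were at least 1.5-fold higher, where 22.7% of all genes were. Genes of levels 9 to 10, the range of Bmp3, had a median of 0.39 in that setting. Those of levels 12 to 13, the range of Bmp4, had 0.605. Bmp4 had a level of 12.50 ± 0.14 in the homozygous channel and 12.44 ± 0.14 in the heterozygous channel (SD, n = 10 spots). Spot by spot its ratio was 0.06 ± 0.02 (SD, n = 10 spots), above 0 in 10 of 10 spots. Bmp7, another epithelial BMP, had 9.99 ± 0.08 in the homozygous channel and 10.11 ± 0.06 in the heterozygous channel (SD, n = 9 spots), a ratio of −0.12 ± 0.03. A second probe of Bmp7 gave −0.36 from 1 spot, so the 2 probes differed by more than the spread of repeated spots. For Bmp2 the spots gave −0.07 ± 0.08 (SD, n = 8 spots), with 6 of 8 below 0. With loess Tgfb1, Bmp4 and Bmp7 thus had every spot on 1 side of 0, and these spreads cover repeated spots of 1 array only. Bmp7 as a gene turned to 0.26 with median centring, where genes of levels 10 to 11 had a median of 0.499.

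**Figure D2:**
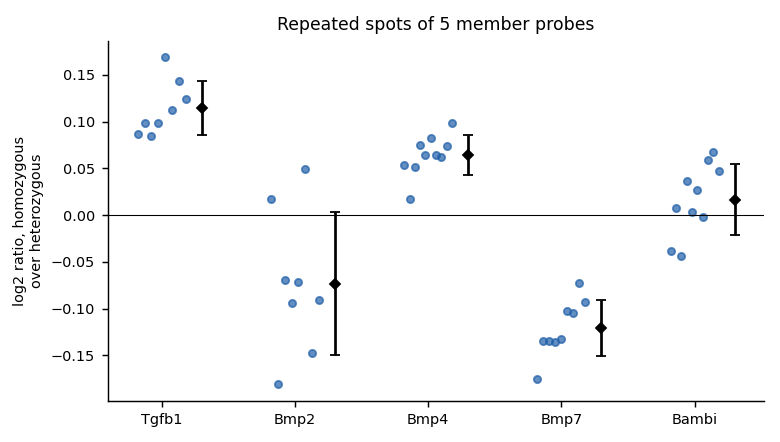
Log2 ratio of homozygous over heterozygous lung (y axis) at each repeated spot of 5 member probes, those of Tgfb1, Bmp2, Bmp4, Bmp7 and Bambi. Blue points are spots and black diamonds their mean with the SD. Spots of Tgfb1 and Bmp4 lie above 0 and those of Bmp7 below it, while Bmp2 and Bambi have spots on both sides.

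Among the remaining BMPs, Bmp5 stood at 9.41 in the homozygous lung and 9.67 in the heterozygous lung, with probes at −0.44 and −0.08. Bmp6, better known for its part in iron regulation, had probes at −0.18 and −0.10. Bmp8a (−0.21 ± 0.25) and Bmp8b (0.14 ± 0.27) are close paralogues whose signals may not be told apart, and both ratios lay inside the scanner error. Bmp3, which acts against other BMPs in bone, was the highest of the group at 10.18 in the homozygous lung and 9.80 in the heterozygous lung, a ratio of 0.37 ± 0.21. Bmp10, a ligand of the trabeculated heart, cleared the background in the homozygous channel alone, at 6.54 against 6.57 in the heterozygous channel, which allows no fold in either direction. The cardiac markers beside it summed to an intensity of 14200 in the homozygous lung and 40821 in the heterozygous lung, with 8 of 8 kept and none at 0. Their part in the Bmp10 value was not tested.

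GDF ligands held both ends of the pathway with loess. Gdf10, also called Bmp3b and the closest relative of Bmp3, had a level of 8.79 in the homozygous lung and 9.74 in the heterozygous lung. Its ratio of −0.95 ± 0.23, or 1.94-fold lower, was the lowest of the 56, and 2.2% of all genes had a lower one. It stood on the opposite side of 0 from Bmp3. In the other scalings Gdf10 ran from −1.05 to −0.56 and was at least 1.5-fold lower in each but median centring. Settings that change probe filters, probe summaries or outlier spots left its single probe at −0.95.

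Gdf8, which is myostatin, the inhibitor of skeletal muscle growth, had 6.61 in the homozygous lung and 7.21 in the heterozygous lung, a ratio of −0.59 ± 0.34. That is 1.51-fold, just past the rule, while Ltbp4 lay just inside it at 1.39-fold. Its size differed between settings. It stood at −1.02 when the offset was 0 and at −1.36 by the log ratio in the scanner file, and at −0.83 with median centring. Of the cardiac markers 5 of 8 were at least 2-fold lower in the homozygous lung, with a median of −1.73 and the sums given above, while Actc1 was at −0.07. The smooth muscle markers had a median of 0.28 over 5 genes, 1 of them below 0. Among the cardiac markers Myl7, the atrial myosin light chain, had a level of 11.06 in the homozygous lung and 14.58 in the heterozygous lung. Their part in the Gdf8 ratio was not tested.

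Gdf9, known as an oocyte growth factor, was the highest member at 8.87 in the homozygous lung and 8.24 in the heterozygous lung, a ratio of 0.63 ± 0.22 or 1.54-fold. It was at least 1.5-fold higher in each of the other scalings, from 0.74 to 0.88, and 2-fold higher in none. The software's log ratio and the series matrix gave the same value, 0.78. Settings that change probe filters, probe summaries or outlier spots left its single probe at 0.63. In the RefSeq gene table its gene overlaps Uqcrq, a respiratory chain subunit, whose own ratio on this array was 0.28. Gdf7, a relative of Gdf5 and Gdf6 known from joints and the nervous system, stood at 7.40 and 7.07 in the same order, a ratio of 0.33 ± 0.27 that became 0.80 by the log ratio in the scanner file. The stress cytokine Gdf15 (0.01 ± 0.26), Gdf5 (−0.10 ± 0.24), Gdf6 (0.10 ± 0.34), Gdf11 (0.18 ± 0.25) and Gdf1 (0.05 ± 0.20) lay within their scanner errors with loess. By the log ratio in the scanner file Gdf6 (0.46) and Gdf11 (0.29) lay outside theirs, while Gdf15, Gdf5 and Gdf1 stayed within. Gdf1 overlaps the genes Cers1 and Upf1, of which Upf1 had a ratio of 0.42 on this array. How far the Gdf1 probe separates these genes was not determined.

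**Figure D3:**
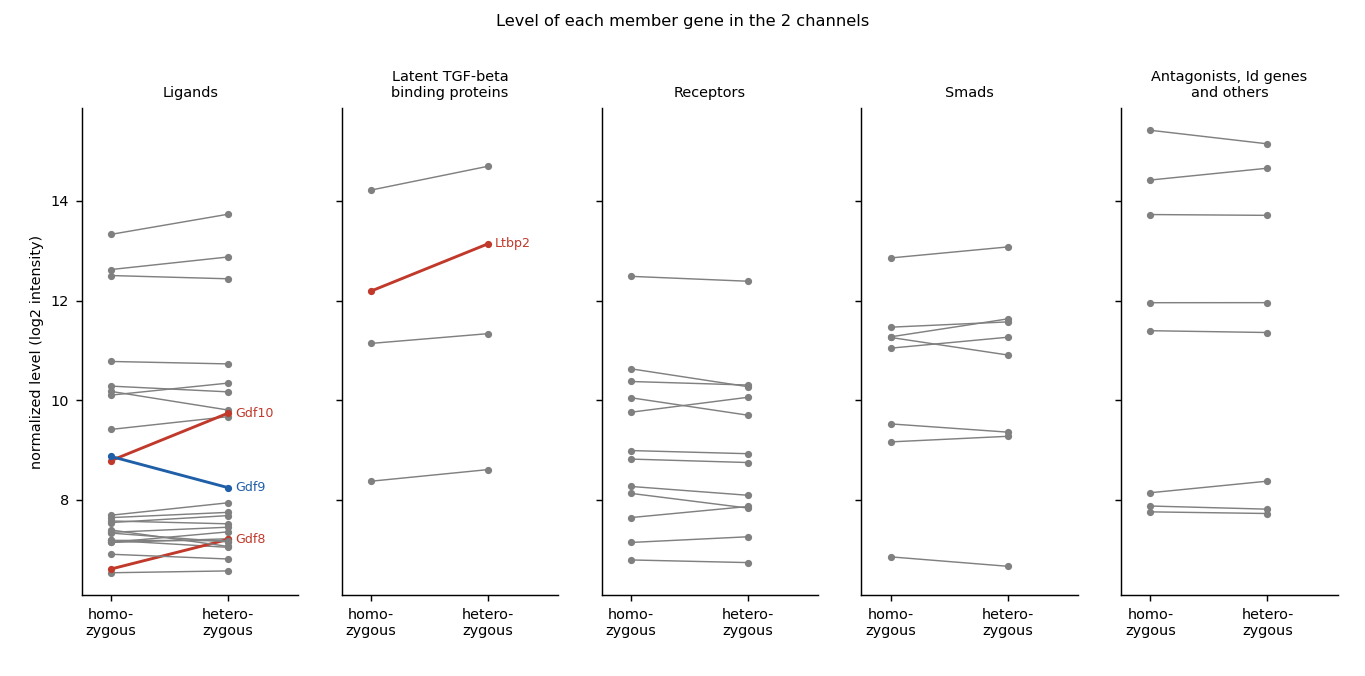
Normalized log2 intensity (y axis) of each kept gene in the homozygous channel (left points) and the heterozygous channel (right points), by role, with a line joining the 2 values of a gene. Red lines are the 3 genes at least 1.5-fold lower in the homozygous lung (Gdf10, Ltbp2 and Gdf8), the blue line is Gdf9, and grey lines are the other 52 genes.

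Activins and inhibins, dimers of shared subunits known from reproductive hormone control and also made in lung mesenchyme, differed little. The beta B subunit Inhbb stood at 7.69 in the homozygous lung and 7.94 in the heterozygous lung, with probes at −0.30 and −0.20. The beta A subunit Inhba was at −0.11 ± 0.22, and the 2 probes of the alpha subunit Inha had opposite signs, −0.13 and 0.25.

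Of the receptors 12 of 12 were kept, with ratios from −0.30 to 0.36. None was past 1.5-fold with loess, although Acvr1, Acvrl1 and Tgfbr1 were 1.5-fold higher with median centring, where 22.7% of all genes were. Tgfbr1 stood at 0.69 there, against a median of 0.605 for genes of levels 12 to 13. Acvr1 and Acvrl1, type I receptors that signal through the BMP Smads, had the highest gene ratios of the receptors with loess. Acvr1 stood at 10.63 in the homozygous lung and 10.27 in the heterozygous lung, a ratio of 0.36 ± 0.21. Acvrl1, the endothelial receptor of Bmp9 and Bmp10, stood at 10.05 and 9.70, a ratio of 0.35 ± 0.21, while the endothelial markers had a median of −0.07 over 6 genes. Both were positive in each of the other scalings, up to 0.87 and 0.82 with median centring. Genes of levels 10 to 11, the range of Acvr1, had a median of 0.499 in that setting. Those of levels 9 to 10, the range of Acvrl1, had 0.39.

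The TGF-beta type I receptor Tgfbr1 had a ratio of 0.10 ± 0.20, and its type II partner Tgfbr2 had 0.05 and 0.36 from the probes that were above background in both channels. The Tgfbr2 probe at 0.05 ± 0.36 was dim, at 6.79 in the homozygous lung and 6.74 in the heterozygous lung. The one at 0.36 ± 0.21 was bright, at 13.295 and 12.935 in the same order. The co-receptor Tgfbr3, which presents TGF-beta 2, was at −0.22 ± 0.22. Bmpr2, the BMP type II receptor mutated in pulmonary hypertension, stood at 9.76 in the homozygous lung and 10.06 in the heterozygous lung, with 3 probes from −0.39 to 0.002. Bmpr1a, required for BMP signalling in the lung epithelium, had probes at −0.15 and 0.29, and Bmpr1b a single one at 0.18. For the activin receptors Acvr1c and Acvr2a the probes also differed in sign, and Acvr2b had a single one at 0.30. Of the 2 probes of Acvr1b only the one at −0.11 was above background in both channels.

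Receptor Smads and the common Smad4 ranged from −0.22 to 0.19 in 6 of 6 genes, none past 1.5-fold. Smad4 had probes at −0.24 and −0.20, but stood at 0.45 with median centring, where genes of levels 12 to 13 had a median of 0.605. On the BMP side, Smad1 had probes at −0.45 and 0.01, Smad5 ran from −0.31 to 0.13, and the Smad9 probe that was above background in both channels gave 0.10. On the TGF-beta side, Smad2 was at −0.11 ± 0.20 and the Smad3 probes that were above background in both channels gave 0.045 and 0.16.

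The inhibitory Smads, both induced by the signals they restrain, lay on opposite sides of 0. Smad6, which prefers the BMP branch, stood at 11.26 in the homozygous lung and 10.91 in the heterozygous lung, a ratio of 0.35 ± 0.21. Smad7, which restrains both branches, stood at 11.27 and 11.63, a ratio of −0.36 ± 0.21. With median centring Smad6 was at 0.90 and Smad7 at 0.20, so the sign of Smad7 depended on the scaling. Genes of levels 11 to 12 had a median of 0.555 in that setting, so Smad7 stayed below genes of like brightness and Smad6 above them. Neither was past 1.5-fold with loess, and Smad6 was 1.5-fold higher with median centring, where 22.7% of all genes were.

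Of the antagonists that were measured, noggin (Nog) was at 0.06 ± 0.22 and chordin (Chrd) at −0.23 ± 0.21. Bambi, a decoy receptor without a kinase domain, stood at 13.73 ± 0.06 in the homozygous channel and 13.71 ± 0.05 in the heterozygous channel (SD, n = 10 spots). Its ratio of 0.02 ± 0.04 (SD, n = 10 spots) was smaller than the spread between its spots. Id1 and Id3, inhibitors of basic helix-loop-helix factors and direct BMP targets, also diverged. Id1 stood at 14.42 in the homozygous lung and 14.66 in the heterozygous lung, and its 2 overlapping probes gave −0.28 and −0.19. Id3 stood at 15.42 and 15.14, a ratio of 0.27 ± 0.21. With median centring both were positive, at 0.54 for Id1 and 1.121 for Id3. Genes of levels 14 to 15, the range of Id1, had a median of 0.71 in that setting, and those above 15, the range of Id3, had 1.044. Id1 thus lay below genes of like brightness and Id3 slightly above them.

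Ratios were set against brightness with loess and with median centring. Under loess the median of all genes lay between −0.05 and 0.02 in each range of levels up to 15, and at 0.16 above it. With median centring it was −0.30 below a level of 7 and 1.04 above 15, and bright members such as the Id genes, Ltbp4 and Smad4 had higher ratios there than with loess, while the dim Gdf8 had a lower one. Under that setting 11 members were at least 1.5-fold higher, while 22.7% of all genes were, and 1 was 1.5-fold lower, while 6.34% of all genes were. The member median of 0.26 then stood 0.04 above that of all genes.

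**Figure D4:**
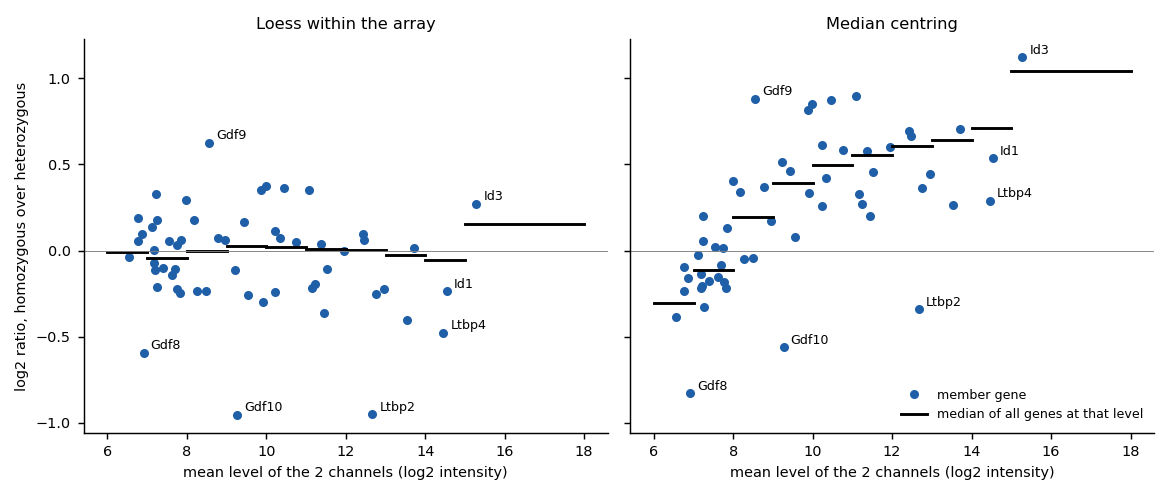
Log2 ratio of homozygous over heterozygous lung (y axis) against the mean level of both channels (x axis, log2 intensity) for the 56 kept genes, with loess (left) and with median centring (right). Points are member genes and black lines the median of all genes in each range of levels. Gdf10, Ltbp2 and Gdf8 lie below and Gdf9 above the black line in both panels.

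Probes of 1 gene often disagreed. Of the 22 members with several kept probes, 11 had probes of both signs, and the median gap between the lowest and highest probe was 0.35. Bmp2k, a kinase induced by BMP2, had the widest set. The probes given here are not its whole set, and lie on the mm8 build at chr5:97308767-97308826 (+ strand, ratio 0.26), chr5:97331093-97331152 (+ strand, −0.50) and chr5:97331757-97331816 (− strand, 0.32). The first 30 bases of each of these are shown in that order because they sample different parts of the locus.
Bmp2k probe 1: catgtcaggctggaatccttttggagaaga
Bmp2k probe 2: aggtgcacgtgtattaatatcactacttac
Bmp2k probe 3: caagtttaacaaaaacatggaagtgtaatc
The last of these is on the strand opposite to the gene, at 9.60 in the homozygous lung and 9.28 in the heterozygous lung. Of 68 member probes whose strand could be compared with that of the gene, 2 were opposite, this one and a probe of Bmp5 that did not pass the filter.

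Promoters of the members were searched for letters known from forkhead factors and from Smads, in RefSeq windows of GRCm38.p6 that run from 250 bases before to 50 after each start. The table held 53 windows for 42 of the genes. GTAAACA, a forkhead core, was found on neither strand of any of the 53, while 3.65% of 32851 windows of all genes held it. The Smad palindrome GTCTAGAC was in 1 member window, that of Smad6, and in 0.213% of all windows. GGCGCC, a GC-rich Smad box, was in 14 member windows (26.4%) and in 11.9% of all windows. These 14 windows belonged to 12 of the 42 genes, as Ltbp4 and Smad5 have overlapping windows that hold the same box. The shares are therefore not those of independent promoters. The 250 bases before the start are shown for Gdf10 (chr14:33923337-33923586, + strand) and Ltbp2 (chr12:84876492-84876741, − strand), the lowest members. Neither stretch holds any of the 3 motifs, so no letters are in capitals. The window of Gdf10 holds the GC-rich box after the start, at position 16, outside the stretch shown.
Gdf10 promoter: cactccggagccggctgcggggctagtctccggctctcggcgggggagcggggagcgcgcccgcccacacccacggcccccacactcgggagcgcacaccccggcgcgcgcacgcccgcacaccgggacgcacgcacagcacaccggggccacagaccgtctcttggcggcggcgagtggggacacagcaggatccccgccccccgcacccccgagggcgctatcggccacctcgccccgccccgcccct
Ltbp2 promoter: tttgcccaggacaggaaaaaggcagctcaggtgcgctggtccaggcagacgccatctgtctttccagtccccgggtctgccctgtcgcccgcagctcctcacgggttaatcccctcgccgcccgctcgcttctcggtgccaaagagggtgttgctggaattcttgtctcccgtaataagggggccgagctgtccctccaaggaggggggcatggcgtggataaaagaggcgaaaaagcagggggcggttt
A match describes letters and not a bound site, and a window without one says nothing about the factor.

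Other genes of the pathway, from lists of 82 genes, were kept in 76 cases. Their median ratio was −0.03, with 40 below 0. At 1.5-fold 5 were lower (5.88% of all genes were) and 3 higher (2.1% of all genes were), and 2 were at least 2-fold lower (1.88% of all genes were). The 3 higher genes include Cer1, whose heterozygous signal was not well above background, so whether it was 1.5-fold higher is uncertain. Counts this small do not set the lists apart from the rest of the array. By list, the median was −0.16 for 24 extracellular binders and activators, −0.08 for 19 target genes, 0.06 for 9 co-receptors and receptor partners, 0.09 for 18 intracellular regulators and 0.04 for 6 other ligands. With median centring the first 2 medians became 0.26 and 0.36 and the last became −0.20, while the median of all genes became 0.22.

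Target genes held the lowest single value. Cdkn2b, the cell cycle inhibitor p15 that TGF-beta induces in epithelia, had a level of 10.498 in the homozygous lung and 12.05 in the heterozygous lung, a ratio of −1.55 ± 0.25. It ran from −1.61 to −0.999 over 4 other scalings. Junb (11.45 and 12.33 in the same order) and Hey1 (12.51 and 13.24) were lower as well, at −0.88 ± 0.22 and −0.73 ± 0.21. These became −0.31 and −0.11 with median centring. Of the 19 targets 12 were below 0 with loess, where 50.5% of all genes were. With median centring 7 of the 19 were, but that setting put the median of all genes at 0.22. The counts thus rest on different zero points and cannot decide whether the list had a direction.

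Outside the targets, Amhr2, the type II receptor of anti-Müllerian hormone, stood at 8.12 in the homozygous lung and 9.48 in the heterozygous lung, a ratio of −1.36 ± 0.25. It stayed between −1.56 and −1.05 in the other scalings. Kcp, a secreted chordin-like modulator of BMP binding, stood at 10.46 and 11.31, a ratio of −0.85 ± 0.22 that became −0.31 with median centring. Map3k7, the kinase TAK1 that carries signals beside the Smads, was higher at 8.51 in the homozygous lung and 7.73 in the heterozygous lung, a ratio of 0.78 ± 0.24. The probes of Strap, a receptor-associated inhibitor, gave 0.19 and 0.996, with a median of 0.59. Cer1, a secreted Nodal and BMP antagonist, was above background in the homozygous channel only, at 7.06 against 6.41.

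Among genes within 1.5-fold, Fbn2 was the lowest binder, Thbs1 (0.46 ± 0.25), an activator of latent TGF-beta, the highest and Itgav, an integrin chain that activates TGF-beta, the one nearest to 0 (−0.03 ± 0.39). Rgma (0.45 ± 0.21), a BMP co-receptor, was the highest and Dab2 (−0.21 ± 0.26), an endocytic adaptor, the lowest receptor partner, and Zfyve9 (−0.06 ± 0.29), an anchor for Smads, was closest to 0 on that list. Nedd4l (−0.38 ± 0.23), a ubiquitin ligase, was the lowest intracellular regulator, Pmepa1 (0.28 ± 0.21), a Smad-binding inhibitor, the highest and Skil (0.05 ± 0.29), a Smad co-repressor, the nearest to 0. The probes of Pmepa1 gave −0.006 and 0.57, those of Skil −0.12 and 0.215, and those of Zfyve9 −0.38 and 0.26. Each of these medians thus lies between probes of opposite sign. Lefty1 (−0.49 ± 0.22) was the lowest of the other ligands and Lefty2 (0.09 ± 0.29) the highest of those above background in both channels. Inhbe cleared the background in the homozygous channel alone, at 7.10 against 6.72 in the heterozygous channel, with Tdgf1, the Nodal co-receptor, at 0.01 ± 0.27. Postn (−0.56 ± 0.33), a matrix protein, was the lowest target, Id4 (0.22 ± 0.21) the highest and Tagln (0.003 ± 0.20) the nearest to 0.

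**Figure D5:**
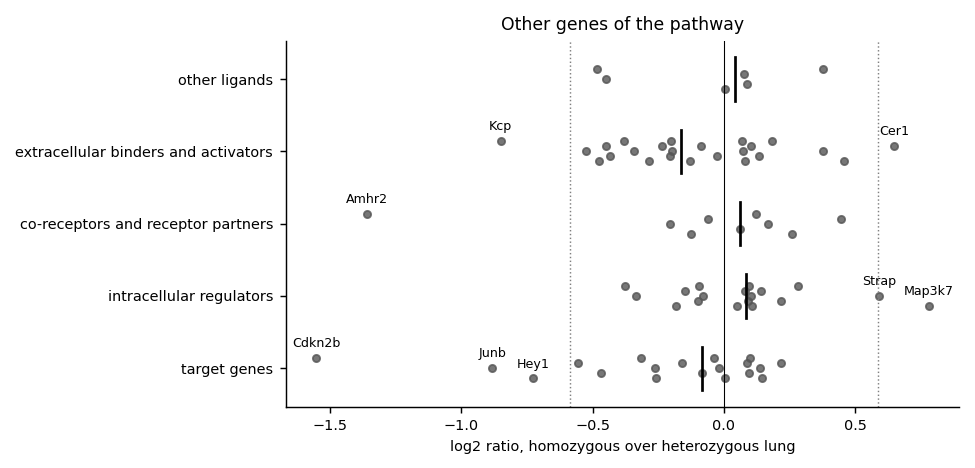
Log2 ratio of homozygous over heterozygous lung (x axis) of 76 further pathway genes in 5 lists. Points are genes, black bars the list medians and dotted lines 1.5-fold, past which genes are named. Cdkn2b (−1.55) and Amhr2 (−1.36) lie lowest and Map3k7 (0.78) highest.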

How the data were processed

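The authors deposited, per the file headers, spot and background intensity values on a linear scale, processed intensities (background-subtracted, detrended, dye-normalized) and a log10 ratio of red over green with its error. Per the submitters' processing notes the scanner software was Agilent Feature Extraction 9.5.3.1. The 2 scanner files are identical and count as 1 array. The deposited series matrix holds processed intensities (medians 138.8 homozygous, 139.8 heterozygous), and its scale factor is unexplained in the sources used here.

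Mean signals were corrected with the median background by normexp (offset 50, which pulls dim ratios towards 0) and loess-normalized without weight on control spots (limma 3.58.1, run in R 4.3.3). Control and 169 outlier spots were left out, and 0 spots were saturated. Spots of a probe were averaged, and the filter kept probes with a share above 0.5 of spots that the software marks as clear of background in either channel. Genes are names as in the file. A further Bmp2k probe is not reported here. Steps were tested on simulated data. Later steps used Python 3.11.15, pandas 2.3.3 and matplotlib 3.10.9.

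With 1 lung per genotype, genes are described by size rules, 2-fold and 1.5-fold. All kept members are named or covered by range, and of the other lists those past 1.5-fold and at most 3 others. Members and lists were chosen with earlier results of these data known. The number of arrays limits the precision. Alternatives were another offset, the software's log ratio, the series matrix, median centring, 2 other probe filters, other probe summaries and outlier spots kept.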

Additional observations from a re-analysis of the deposited data

How the results depend on the processing

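No paired analysis was possible because each genotype has 1 lung. The count of members at least 2-fold lower was 2, in place of 0, when the offset was 0, by the log ratio in the scanner file and by the series matrix. In these settings 3.65%, 5.4% and 5.39% of all genes were 2-fold lower, against 1.88% in the main one. Members at least 1.5-fold higher numbered 2, in place of 1, with the software's log ratio and the series matrix. There 8.69% and 8.31% of all genes were, against 2.1% in the main setting. Median centring, which moved the median of all genes to 0.22, gave 1 member past 2-fold higher, where 3.4% of all genes were. At the 1.5-fold rule it gave 1 lower (6.34% of all genes were) and 11 higher (22.7% of all genes were), with a member median of 0.261. That median was −0.088 with the brightest probe of each gene and −0.053 with each probe on its own. Foxj1 stood at −2.33 with the software's log ratio and the series matrix. Names updated through RefSeq, an alternative added after the data were seen, moved no count. Of the 56 member genes, 31 kept their sign under every alternative and 25 changed it under at least 1, and none of the 4 genes past 1.5-fold did. Those 4 have single probes, whose ratios the settings on probe filters, probe summaries and outlier spots left unchanged. Bmp10, near background, has the widest scanner error (0.516), and 34 members rest on a single probe. The causes of these shifts were not tested.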
